A study of Mus musculus with 37 samples.

Results

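The mRNAs of 10 antioxidant enzymes (Sod1, Sod2, Sod3, Cat, Gpx1, Gpx3, Prdx6, Nqo1, Hmox1 and Gclc) were followed in mouse lung from E15.5 to the first hours of breathing. The genes were chosen by name, as enzymes of antioxidant defence, and no cut-off on a measured value entered the choice, although earlier results of these data were known when it was made. A gene was read by a probe set that carried its symbol and no other, which gave 1 probe set for 9 of the 10 genes, out of 19938 genes measured in this way. Prdx6 had no such probe set and was not analysed here. The question was how much of each change was present before birth, when oxygen in the lung is low, and how much came across birth.

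Untreated mice of the inbred strains A/J and C57BL/6J (B6) were compared, and no allele was altered in either strain. A/J lungs were sampled at 7 times, every day between E15.5 and E20.5 and again just after delivery (PN0), and B6 lungs at 5 times, every day between E15.5 and E18.5 and at PN0. Each of the 12 groups had 3 replicates, and each replicate was a pool of right lungs from 3 male littermates, so that single animals were not resolved. A/J pups are born at E20.5 and B6 pups at E19.5. The A/J step from E20.5 to PN0 therefore spanned the hours around delivery, whereas the B6 step from E18.5 to PN0 also held the last fetal day, and newborn B6 lungs were a day younger than newborn A/J lungs. Values are log2 expression levels after RMA, on which a difference of 1 is a 2-fold difference, and they do not allow one gene's level to be set against another's.

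Superoxide dismutases turn superoxide into hydrogen peroxide in the cytosol (Sod1), in mitochondria (Sod2) and outside the cell (Sod3). Catalase (Cat) and the glutathione peroxidases Gpx1, inside cells, and Gpx3, which is secreted, remove the peroxide. Gclc is the catalytic subunit of the enzyme that limits glutathione synthesis, Hmox1 breaks down heme, and Nqo1 reduces quinones. Gclc, Hmox1 and Nqo1 are textbook targets of Nrf2, a transcription factor that responds to oxidants and binds antioxidant response elements. In several mammals antioxidant enzymes of the lung rise late in gestation together with surfactant.

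The arrays were alike in scale, with medians from 6.34 to 6.54. The number of arrays limits the precision. The mean of 9 type II cell markers, among them the surfactant proteins, lay between 7.96 and 8.40 in the A/J replicates at E15.5 and between 11.77 and 11.86 at PN0, so the labelled tissue carried its defining markers. Liver or esophagus markers were raised by over 1 log2 unit in 8 of the 36 replicates against the lowest replicate of their group. Among them were A/J replicates 2 and 3 at E20.5, replicate 2 at PN0 and replicate 2 at E19.5. Calls of the 9 genes that were lost without these 8 replicates are given beside the result. A group raised in every replicate escaped this rule. At E18.5 the mean of 8 esophagus markers was 6.90 to 7.27 in A/J and 5.44 to 5.97 in B6. No A/J replicate at E18.5 was among those left out, so their omission does not check the results at that age. The A/J arrays at E18.5 were shifted as a whole. The median of all probe sets moved by 0.12 from E17.5 to E18.5 and by -0.10 on the next day, and by -0.13 between the strains at E18.5, and centring each array took these medians to 0.01, -0.03 and -0.04. In some other comparisons centring moved the median away from 0. It went from 0.02 to -0.07 for B6 from E16.5 to E17.5, and to -0.05 for B6 from E15.5 to E18.5. RNA of whole lung was measured, so a change in the number of cells of a type and a change in RNA per cell cannot be told apart.

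Most of the enzymes rose before birth in both strains. In A/J, 7 of the 9 genes were higher at E20.5 than at E15.5 (Sod1, Sod2, Sod3, Cat, Gpx1, Gpx3 and Gclc) and 2 were lower (Hmox1 and Nqo1), where 25.1% of all 21789 probe sets tested rose and 25.9% fell. The median change of the 9 genes was 0.62, against 0.01 over all probe sets. In B6, the same 7 genes were higher at E18.5 than at E15.5 and Nqo1 was lower, against 21.8% up and 23.7% down among all probe sets, with a median of 0.39 for the 9 genes and 0.00 for all. In B6 5 rather than 8 genes passed without replicate 3 at E18.5, with the calls of Sod3, Gpx1 and Gclc lost. The A/J interval was longer, 5 daily steps against 3 in B6. Changes were called at an adjusted p under 0.05 from limma, fitted over all groups, with Benjamini-Hochberg adjustment over all 21789 probe sets.

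Across birth the pattern was mixed. From E20.5 to PN0 in A/J, Sod3, Hmox1 and Nqo1 rose and Cat fell, 3 genes up and 1 down of 9, where 11.8% of all probe sets rose and 7.74% fell. The median change was 0.20 for the 9 genes and -0.02 for all probe sets. None of the 4 changes reached 1.5-fold, and 2 genes rather than 4 passed without replicate 1 or replicate 3 at E20.5 or without replicate 2 at PN0. From E18.5 to PN0 in B6, 7 genes rose (Sod2, Sod3, Gpx1, Gpx3, Gclc, Hmox1 and Nqo1) and Cat fell, against 12.2% up and 14.1% down. The A/J interval nearest to it, from E19.5 to PN0, gave 5 genes up (Sod3, Gpx1, Nqo1, Hmox1 and Gclc) and Cat down, against 11.7% up and 8.37% down. Prenatal and birth changes of a strain share the last fetal group, so an error in that group moves them in opposite directions.

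**Figure D1:**
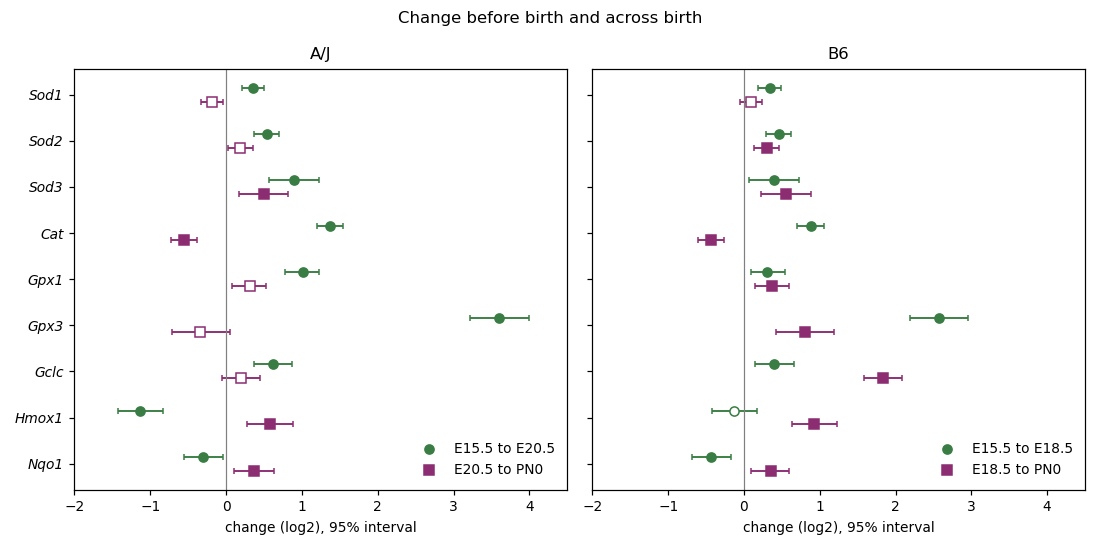
Log2 change of the 9 genes before birth (green circles) and across birth (purple squares) in A/J and B6, with 95% intervals from limma; filled symbols passed an adjusted p of 0.05. The largest prenatal change was that of Gpx3 (3.60 in A/J, 2.57 in B6), and Cat lay right of 0 before birth and left of 0 across birth in both strains. Gclc moved by 1.83 from E18.5 to PN0 in B6 and by 0.20 from E20.5 to PN0 in A/J, a shorter interval.

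The 3 superoxide dismutases rose before birth in both strains. Sod1 changed little. It gained 0.36 ± 0.07 (SE) in A/J and 0.34 ± 0.07 in B6 before birth, with adjusted p of 1.0e-04 and 2.3e-04 from limma. Across birth it differed by -0.19 in A/J (95% interval -0.33 to -0.04, adjusted p = 0.0676) and by 0.09 in B6 (-0.05 to 0.24, adjusted p = 0.402), and neither passed. Its group means spanned 0.45 in all, and 32.4% of genes had a smaller span.

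Sod2 gained 0.54 ± 0.08 before birth in A/J and 0.46 ± 0.08 in B6. The 3 A/J values at E17.5 were 8.89, 8.92 and 8.96, and those at E18.5 were 9.34, 9.18 and 9.52, with no overlap. The B6 values were 8.72, 8.82 and 8.77 at E16.5 and 9.08, 9.17 and 9.0 at E17.5. With centred arrays this B6 step was 0.23 and not called (adjusted p = 0.0708), and the A/J step led into the shifted arrays of E18.5. Centring itself moved the median of all probe sets in the B6 step from 0.02 to -0.07. No strain difference was called at E16.5, E17.5 or E18.5 (adjusted p of 0.162, 0.203 and 0.257 from limma). A difference in timing was not tested. Both strains reached a mean of 9.52 at PN0. Across birth Sod2 rose in B6 by 0.30 (adjusted p = 0.00651), and in A/J the difference of 0.18 did not pass (adjusted p = 0.120).

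Sod3, the extracellular enzyme, was dim at first and rose both before and across birth. Its A/J values were 5.30, 5.28 and 5.25 at E15.5, 6.08, 6.45 and 6.00 at E20.5 and 6.43, 6.99 and 6.60 at PN0, so that the highest value at E20.5 lay just above the lowest newborn value. The gain was 0.90 ± 0.16 before birth (adjusted p = 1.9e-05) and 0.50 ± 0.16 across it (adjusted p = 0.0264). In B6 the values were 5.34, 5.28 and 5.33 at E15.5, 5.72, 5.74 and 5.67 at E18.5 and 6.23, 6.04 and 6.54 at PN0. These replicate values did not overlap between the groups. The value of 5.74 was the mean of array 2 (5.44) and array 2b (6.05), and array 2b lay just above the lowest newborn value. The B6 gains were 0.39 ± 0.16 and 0.56 ± 0.16. All group means but that of newborn A/J lungs (6.67) lay below the median of all values, 6.41. The A/J birth change had an adjusted p of 0.204 without replicate 2 at PN0, 0.0935 without replicate 1 and 0.128 without replicate 3 at E20.5, and 0.348 without the 8 replicates with neighbouring tissue, which left 1 replicate at E20.5. The same omission gave an adjusted p of 0.0789 for the B6 prenatal change and of 0.117 for the A/J change from E19.5 to PN0. The B6 prenatal change lost its call without any one of the 6 replicates at E15.5 and E18.5, with adjusted p from 0.0680 to 0.101, and the B6 birth change had an adjusted p of 0.0804 without replicate 3 at PN0.

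Gpx3, the secreted peroxidase, had the largest prenatal change of the 9 genes. Its 3 A/J values were 8.70, 8.28 and 7.98 at E15.5, 8.51, 8.52 and 8.54 at E16.5, 9.92, 9.97 and 10.15 at E17.5, 11.10, 10.78 and 11.52 at E18.5, 11.76, 11.52 and 11.37 at E19.5, between 11.66 and 12.11 at E20.5 and 11.87, 11.50 and 11.39 at PN0. The daily step was 0.20 to E16.5 (adjusted p = 0.601), 1.49 to E17.5 and 1.12 to E18.5, both called, and then 0.42 (adjusted p = 0.0994) and 0.37 (adjusted p = 0.519), neither of them called. The prenatal gain was 3.60 ± 0.19, or 12.2-fold (adjusted p = 1.6e-15), and the difference of -0.34 ± 0.19 across birth did not pass (95% interval -0.72 to 0.05, adjusted p = 0.231).

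In B6 the largest daily step of Gpx3 led to E18.5, and a further rise was called to PN0. The B6 values were 8.30, 8.08 and 8.11 at E15.5, 8.03, 8.22 and 8.08 at E16.5, 8.95, 8.42 and 8.81 at E17.5, 10.92, 10.31 and 10.98 at E18.5 and 11.58, 11.50 and 11.55 at PN0. The value of 10.31 was the mean of array 2 (9.83) and array 2b (10.79). The step from E17.5 to E18.5 alone was 2.01 ± 0.19, or 4.03-fold (adjusted p = 4.6e-08). The gain was 2.57 ± 0.19 before birth, or 5.95-fold (adjusted p = 4.6e-12), and 0.81 ± 0.19 from E18.5 to PN0 (adjusted p = 0.00162). At PN0 the strain means were 11.59 and 11.54. The strains differed by 0.77 in the change from the day before delivery to PN0. This difference was not called, and it passed under 3 of 24 other settings.

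Gpx1, the cytosolic peroxidase, rose before birth in both strains, in A/J by steps of 0.38 to E18.5 and 0.44 to E19.5. With centred arrays the step to E18.5 was 0.27 and not called (adjusted p = 0.0944 from limma). Without the replicates with neighbouring tissue the step to E19.5 was 0.33 and not called (adjusted p = 0.0723). The A/J values of Gpx1 were 9.85, 9.83 and 9.68 at E15.5, 10.75, 10.86 and 10.77 at E20.5 and 11.21, 11.09 and 11.00 at PN0. The gain was 1.01 ± 0.11 before birth, or 2.01-fold (adjusted p = 7.3e-09), and the difference of 0.31 ± 0.11 across birth lay at an adjusted p of 0.0510, although the 3 newborn values were above the 3 at E20.5. In B6 Gpx1 went from a mean of 9.92 at E15.5 to 9.50 at E17.5 and 10.24 at E18.5, where the replicates spread from 9.89 to 10.52. The B6 gain was 0.31 ± 0.11 before birth (adjusted p = 0.0205) and 0.37 ± 0.11 to PN0 (adjusted p = 0.0140). Both values turned on single arrays. The gain before birth was 0.17 without replicate 3 at E18.5 (adjusted p = 0.226) and 0.49 without replicate 2 there (adjusted p = 1.6e-04), and its call was lost without replicate 1 at E18.5 (0.0745) or replicate 3 at E15.5 (0.116), with array 2b left out (0.164) and with centred arrays (0.0564). The gain to PN0 was 0.19 without replicate 2 at E18.5 (adjusted p = 0.195) and 0.34 without replicate 1 at PN0 (adjusted p = 0.0511).

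Catalase rose before birth and fell across it in both strains, and no other gene of the 9 was called in this order. The A/J values climbed from 9.20, 9.22 and 9.41 at E15.5 to 10.29, 10.12 and 10.10 at E17.5 and 10.59, 10.63 and 10.72 at E20.5, and were 9.97, 10.24 and 10.06 at PN0. Every newborn A/J value was below every value at E20.5. The rise was 1.37 ± 0.08, or 2.58-fold (adjusted p = 4.5e-14), and the fall across birth was -0.56 ± 0.08, or 1.47-fold (adjusted p = 2.0e-05). The B6 values were 9.37, 9.52 and 9.35 at E15.5, 10.33, 10.20 and 10.33 at E18.5 and 9.75, 9.86 and 9.95 at PN0, again with no overlap. The B6 changes were 0.88 ± 0.08 (adjusted p = 8.2e-10) and -0.43 ± 0.08 (adjusted p = 2.3e-04).

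The fall of catalase in A/J was tested against the course of the day before. The step across birth covered hours and the step before it a day. Both hold the E20.5 group, so an error in that group moves them in opposite directions. The change across birth minus the change from E19.5 to E20.5 was -0.71 ± 0.14 (95% interval -1.0 to -0.41, adjusted p = 0.00290), and Cat was the only 1 of the 9 genes to pass, where 6.98% of all probe sets did. The adjusted p was 0.0850 with the 3 groups fitted alone and 0.183 without the replicates with neighbouring tissue. The birth fall itself passed under each of 18 other settings, with values from -0.63 to -0.50. No strain difference was called in its change from the day before delivery to PN0 (-0.03, 95% interval -0.27 to 0.21).

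**Figure D2:**
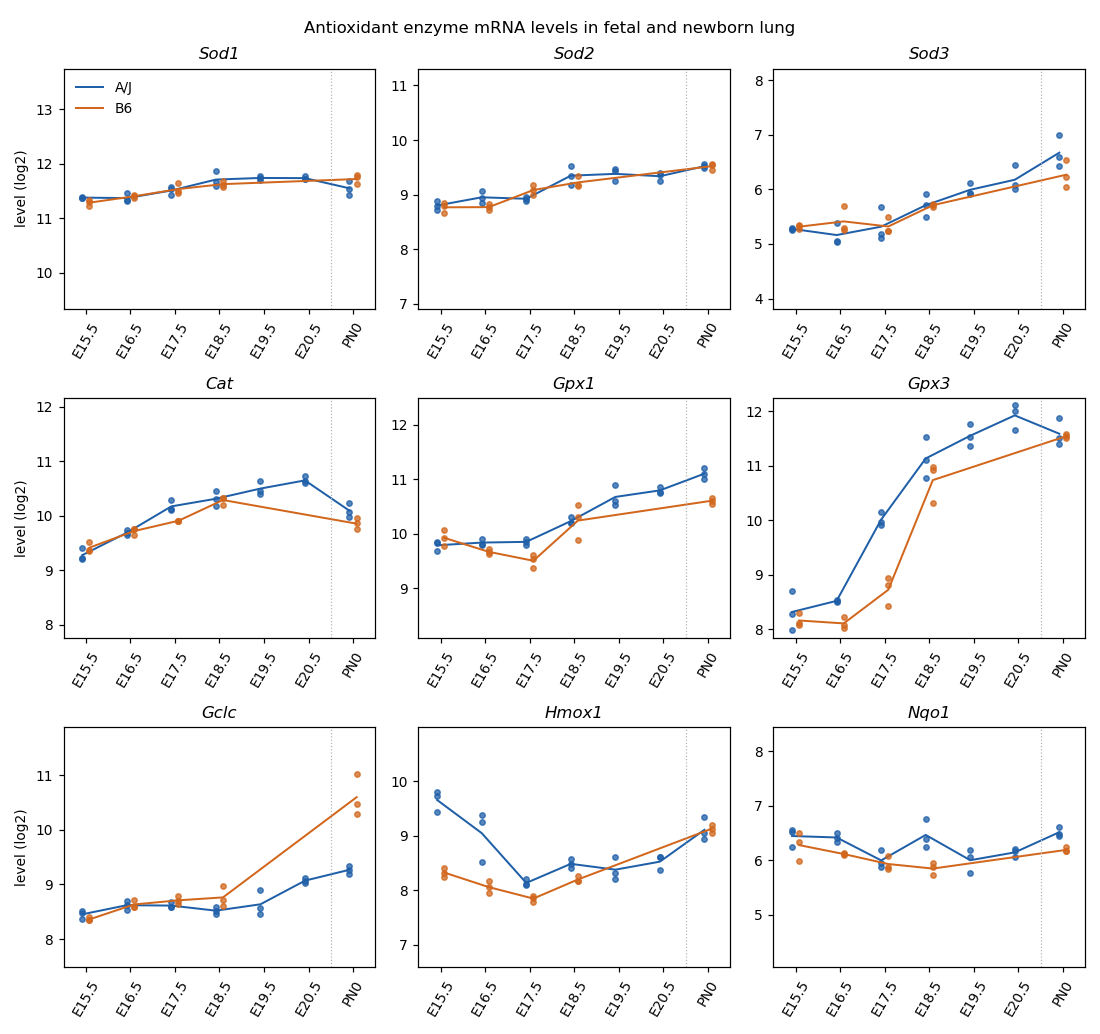
Level of the 9 genes (log2) by age label in A/J (blue) and B6 (orange); points are replicates, lines join group means, all panels span the same number of log2 units, and the dotted line marks birth of A/J. Gpx3 climbed from about E17.5, Cat turned down at PN0 in both strains, Gclc parted between the strains at PN0, and Hmox1 was apart at E15.5 and E16.5.

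The promoters of Gpx3, which had the largest rise, of Cat, which turned at birth, and of Sod1, which changed least, are shown for the 250 bases before the start of transcription, from RefSeq in the build GRCm38.p6. Such windows were held for 6 of the 10 genes (Sod1, Sod2, Cat, Gpx1, Gpx3 and Nqo1). Capitals mark a CCAAT box (CCAAT, or ATTGG on the other strand) in Gpx3 and Cat, and in Sod1 the letters TGACNNNGC of the antioxidant response element core, read on the other strand, and a TATA box (TATAAA).
Gpx3, chr11:54902604-54902853, plus strand: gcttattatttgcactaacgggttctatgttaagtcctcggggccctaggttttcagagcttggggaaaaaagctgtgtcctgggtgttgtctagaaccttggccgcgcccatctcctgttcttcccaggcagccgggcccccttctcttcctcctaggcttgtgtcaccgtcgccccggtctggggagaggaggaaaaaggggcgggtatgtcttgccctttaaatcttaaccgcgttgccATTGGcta
Cat, chr2:103485154-103485403, minus strand: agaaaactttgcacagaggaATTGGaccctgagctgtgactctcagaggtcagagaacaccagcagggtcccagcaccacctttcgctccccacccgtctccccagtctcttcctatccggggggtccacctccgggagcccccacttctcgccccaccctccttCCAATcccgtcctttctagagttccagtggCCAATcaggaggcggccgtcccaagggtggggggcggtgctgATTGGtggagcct
Sod1, chr16:90220512-90220761, plus strand: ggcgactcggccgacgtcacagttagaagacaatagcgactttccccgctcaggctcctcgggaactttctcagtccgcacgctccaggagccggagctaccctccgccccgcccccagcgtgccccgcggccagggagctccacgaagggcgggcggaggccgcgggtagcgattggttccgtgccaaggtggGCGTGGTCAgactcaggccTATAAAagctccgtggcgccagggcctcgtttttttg

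The Cat window held 4 CCAAT boxes, the farthest 230 bases and the nearest 13 bases before the start. On both strands together, CCAAT was found in 4 of the 6 windows (Cat, Gpx3, Sod1 and Sod2) and in 33.8% of all 32851 promoters of this length. TGACNNNGC was found in Sod1 alone of the 6, and in 10.2% of all promoters. The AP-1 letters TGANTCA, which can overlap TGACNNNGC, were in none of the 6 and in 6.75% of all. ACGTG, the hypoxia response element core, was in Gpx1 and in 16.6% of all, and TATAAA was in Sod1 and Nqo1 and in 12.4% of all. These are matches of letters, and no binding was measured.

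Of the 9 genes, only Gclc was called as changing differently in the strains from the day before delivery to PN0. No B6 lung was sampled between E18.5 and PN0, so the last fetal day and birth cannot be told apart in that strain. The B6 values were 8.34, 8.40 and 8.34 at E15.5, 8.59, 8.72 and 8.59 at E16.5, 8.70, 8.64 and 8.79 at E17.5, 8.72, 8.60 and 8.97 at E18.5 and 10.48, 11.03 and 10.29 at PN0. The A/J values were 8.47, 8.37 and 8.52 at E15.5, 8.56, 8.89 and 8.46 at E19.5, 9.07, 9.12 and 9.02 at E20.5 and 9.34, 9.27 and 9.20 at PN0. Every newborn B6 value was above every other value of the series, and the newborn A/J values were above all fetal A/J values.

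The change of Gclc from E18.5 to PN0 in B6 was 1.83 ± 0.12, or 3.57-fold (adjusted p = 2.5e-11). From E19.5 to PN0 in A/J, the interval that also begins on the day before delivery, it was 0.63 ± 0.12, or 1.55-fold (adjusted p = 4.1e-04). The difference between these changes was 1.20 ± 0.17 (95% interval 0.85 to 1.56, adjusted p = 1.3e-04), and Gclc was the only 1 of the 9 genes to pass this test, where 7.03% of all probe sets did. It passed under 23 of 24 other settings, with values from 0.99 to 1.36, and missed with the 4 groups fitted alone (adjusted p = 0.0638). In A/J the step was 0.43 ± 0.12 from E19.5 to E20.5 (adjusted p = 0.116, and 0.0218 without replicate 2 at E19.5) and 0.20 ± 0.12 across birth (adjusted p = 0.284), and no difference between these steps was called (-0.23 ± 0.21, adjusted p = 0.610). The first of these A/J steps covered a day and the second the hours around delivery. Before E19.5 the A/J means stayed between 8.45 and 8.62.

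The same test of the strain difference in change was passed by none of 9 further glutathione genes and by 3 of 14 thioredoxin genes, against the 7.03% of all probe sets. Named here after their values were seen, the 3 were Sesn1, a sestrin (0.78 ± 0.18, adjusted p = 0.00858), Txnip, an inhibitor of thioredoxin (0.62 ± 0.17, adjusted p = 0.0226), and Txnrd2, the mitochondrial thioredoxin reductase (-0.43 ± 0.10, adjusted p = 0.0115). Of the other lists, 2 of 15 glutathione transferases, 1 of 9 Nrf2 genes (Bach1), 3 of 11 heme and metal genes, 3 of 8 NADPH genes and 1 of 11 oxidant sources passed. Gclm, the modifier subunit that pairs with Gclc, rose from the day before delivery to PN0 by 0.39 ± 0.06 in B6 and by 0.47 ± 0.06 in A/J, a difference of -0.08 ± 0.09 (adjusted p = 0.686). Slc7a11, the transporter that brings in cystine, rose by 0.38 ± 0.13 in B6 and 0.41 ± 0.13 in A/J, a difference of -0.03 ± 0.19 (adjusted p = 0.957). Txnrd1, thioredoxin reductase, rose by 0.63 ± 0.10 in B6 and 0.69 ± 0.10 in A/J, a difference of -0.06 ± 0.14 (adjusted p = 0.888).

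**Figure D3:**
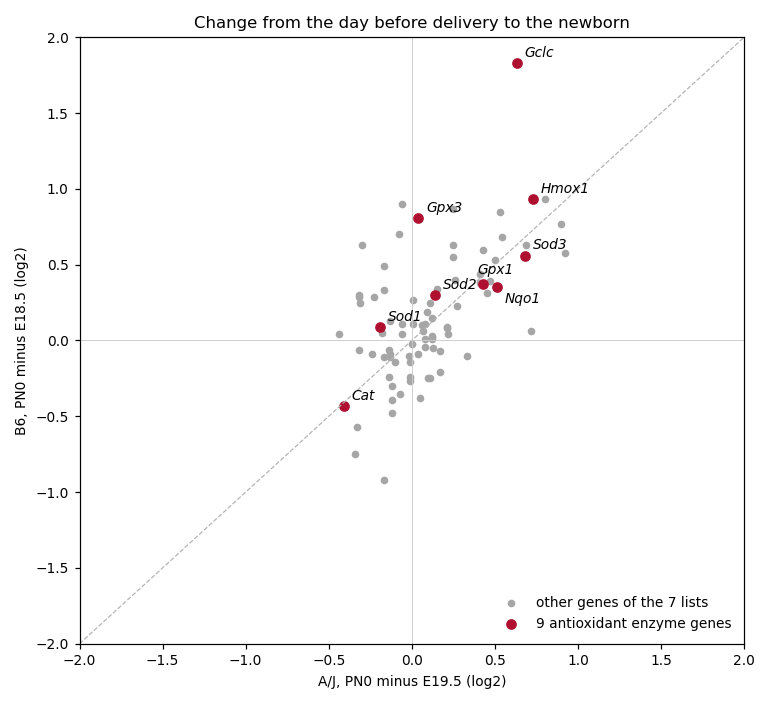
Change from the day before delivery to PN0 in A/J (E19.5, horizontal) and B6 (E18.5, vertical), log2, for the 9 antioxidant enzyme genes (red) and 77 other genes of the 7 pathway lists (grey); the dashed line marks equal change. Gclc lay farthest above the line, at 0.63 and 1.83, and Cat lay below 0 on both axes, at -0.41 and -0.43.

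Hmox1 was high in the youngest A/J lungs and not in those of B6. The A/J values were 9.73, 9.80 and 9.43 at E15.5, 8.51, 9.25 and 9.38 at E16.5, 8.09, 8.11 and 8.20 at E17.5, 8.57, 8.40 and 8.48 at E18.5, 8.32, 8.60 and 8.21 at E19.5, 8.60, 8.60 and 8.37 at E20.5 and 9.05, 9.34 and 8.93 at PN0. The B6 values were 8.40, 8.32 and 8.25 at E15.5, 7.95, 8.06 and 8.16 at E16.5, 7.90, 7.78 and 7.86 at E17.5, 8.26, 8.16 and 8.17 at E18.5 and 9.13, 9.05 and 9.20 at PN0. The strains did not overlap at E15.5, E16.5, E17.5 or E18.5, although the test was passed only at the first 2 of these ages, and at PN0 the means were 9.11 and 9.13.

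Hmox1 fell by -1.13 ± 0.15 before birth in A/J, or 2.19-fold (adjusted p = 1.3e-07), and the B6 difference of -0.13 ± 0.15 did not pass (95% interval -0.42 to 0.17, adjusted p = 0.536). Over the same ages, E15.5 to E18.5, the strains differed in their change by 1.04 ± 0.21 (95% interval 0.62 to 1.47, adjusted p = 0.00438). Hmox1 was the only 1 of the 9 genes to pass that test, where 5.87% of all probe sets did, and it passed under each of 24 other settings. Across birth it rose by 0.58 ± 0.15 in A/J (adjusted p = 0.00475, and 0.375 without the replicates with neighbouring tissue) and by 0.93 ± 0.15 in B6, or 1.90-fold (adjusted p = 2.0e-05). The mean of 9 macrophage markers, cells in which Hmox1 is abundant, overlapped at E15.5, from 6.63 to 6.70 in A/J and from 6.65 to 6.71 in B6. The mean of 5 red cell precursor markers at E15.5 was 7.13 to 7.36 in A/J and 6.98 to 7.80 in B6. At E16.5 the macrophage mean was 6.72 to 6.74 in A/J and 6.67 to 6.76 in B6. The red cell precursor mean at E16.5 was 7.03 to 7.35 in A/J and 6.78 to 7.09 in B6. The part of these cells in the strain difference of Hmox1 was not tested.

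Before birth Nqo1 moved opposite to most of the set, whereas across birth it rose, as did others of the set. Its changes were small, at a dim level. Its group means lay between 5.84 and 6.51. It was lower at the end of the fetal series by -0.30 ± 0.13 in A/J (adjusted p = 0.0485) and by -0.43 ± 0.13 in B6 (adjusted p = 0.00559), and it rose across birth by 0.37 ± 0.13 in A/J (adjusted p = 0.0376) and 0.35 ± 0.13 in B6 (adjusted p = 0.0429). Each of these 4 calls was lost without some single replicate, with an adjusted p of up to 0.174 for the A/J prenatal change (without replicate 2 at E15.5) and 0.0601 for that of B6 (without replicate 1 at E15.5). Each was also lost without the replicates with neighbouring tissue, with adjusted p of 0.411 and 0.103 before birth in A/J and B6 and of 0.333 and 0.0708 across it. The A/J values of 6.76, 6.24 and 6.39 at E18.5 stood above those of the neighbouring days, on the day whose arrays were shifted. Esophagus markers were raised in all of these A/J replicates at E18.5, and their part in the Nqo1 values was not tested. The steps into and out of E18.5 were 0.47 and -0.46 as deposited, and 0.36 (adjusted p = 0.0577) and -0.40 (adjusted p = 0.0366) with centred arrays.

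The daily steps show when the prenatal changes were called, with counts that moved with settings. From E15.5 to E16.5 in A/J, Cat rose and Hmox1 fell, 2 of 9 genes against 6.28% of all probe sets. From E16.5 to E17.5, Cat and Gpx3 rose and Hmox1 and Nqo1 fell, 4 of 9 against 28.1%. From E17.5 to E18.5, Sod1, Sod2, Gpx1, Gpx3 and Nqo1 rose, 5 of 9 against 30.2%, of which Sod2 and Gpx3 were called with centred arrays. From E18.5 to E19.5, Gpx1 rose and Nqo1 fell, 2 of 9 against 27.4%. From E19.5 to E20.5 none of the 9 passed in limma, against 0.482% of all probe sets, and 1 of 9 (Gclc) had an unadjusted p under 0.05.

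In B6, 1 of 9 genes (Cat, up) passed from E15.5 to E16.5, against 14.0% of all probe sets. Sod2 and Gpx3 rose from E16.5 to E17.5, against 14.8%, and neither passed with centred arrays (adjusted p of 0.0708 and 0.0535). Centring took the median of all probe sets in this step from 0.02 to -0.07. Cat, Gpx1 and Gpx3 rose from E17.5 to E18.5, against 23.0%. The step of Hmox1 from E15.5 to E16.5 in A/J went from -0.61 to -0.34 (adjusted p = 0.128) without replicate 1 at E16.5. Without the replicates with neighbouring tissue the steps that lost their call were those of Hmox1 to E16.5 (adjusted p = 0.0963), Sod1 to E18.5 (0.0596) and Gpx1 to E19.5 (0.0723) in A/J, and those of Cat to E16.5 (0.162) and of Sod2 (0.0821) and Gpx3 (0.188) to E17.5 in B6.

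Strain differences at matched age labels were few and mostly in 1 gene at a time. At E15.5 only Hmox1 passed, 1.33 lower in B6 on the log2 scale (B6 minus A/J -1.33 ± 0.15, or 2.51-fold, adjusted p = 9.7e-07), against 2.24% of all probe sets. The replicate numbers of these 2 groups varied together, and with the number as a block and the 2 groups fitted alone the difference was -1.33 ± 0.08 with an adjusted p of 0.0536. At E16.5 again only Hmox1 passed (-0.99 ± 0.15, adjusted p = 1.0e-04), against 7.27%. At E17.5 Gpx3 was lower in B6 by -1.29 ± 0.19, or 2.44-fold (adjusted p = 4.6e-05), with Gpx1 (-0.35, adjusted p = 0.0445) and Cat (-0.26, adjusted p = 0.0429), against 10.1%. Leaving out replicate 1 or 2 of either strain at E17.5 ended the calls of Gpx1 and Cat, as did, for Cat, leaving out replicate 3 of B6, and that of Gpx3 held in each case. With the replicates with neighbouring tissue left out, Gpx1 had an adjusted p of 0.0651 and Cat of 0.103 at E17.5.

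At E18.5 only Nqo1 passed (-0.62 ± 0.13, adjusted p = 7.3e-04), against 31.0% of all probe sets, and centred arrays gave -0.53 (adjusted p = 0.00809). Esophagus markers were raised in all A/J replicates of that age, and their part in this difference was not tested. At PN0 Gclc was higher in B6 by 1.33 ± 0.12, or 2.51-fold (adjusted p = 1.6e-08), and Gpx1 (-0.50 ± 0.11, adjusted p = 0.00185) and Cat (-0.24 ± 0.08, adjusted p = 0.0465) were lower, against 19.1%. Cat's call at PN0 was lost under 8 of 18 settings, among them the omission of the replicates with neighbouring tissue (adjusted p = 0.313). On the day before delivery, E18.5 in B6 and E19.5 in A/J, Gpx3 was lower in B6 by -0.81 ± 0.19 (adjusted p = 0.00510) and Gpx1 by -0.44 ± 0.11 (adjusted p = 0.0108), against 9.53%. Without replicate 2 of B6 at E18.5 these became -0.60 (adjusted p = 0.0582) and -0.26 (adjusted p = 0.126), and without replicate 2 of A/J at E19.5 Gpx1 gave -0.32 (adjusted p = 0.107). Without the replicates with neighbouring tissue the adjusted p of Gpx1 on that day was 0.174.

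**Figure D4:**
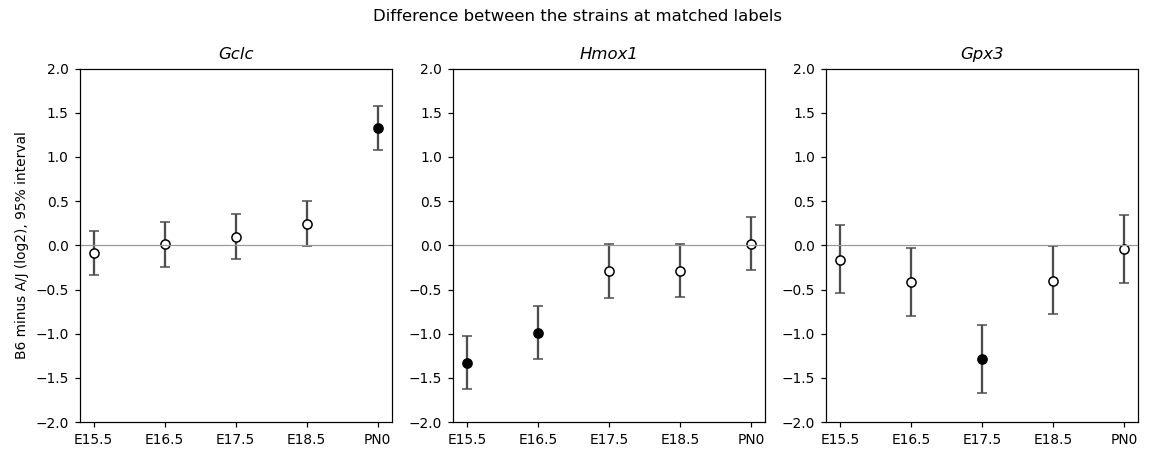
B6 minus A/J (log2) for Gclc, Hmox1 and Gpx3 at the 5 age labels that both strains share, with 95% intervals; filled points passed an adjusted p of 0.05. Gclc was apart at PN0 (1.33), Hmox1 at E15.5 (-1.33) and E16.5 (-0.99), and Gpx3 at E17.5 (-1.29).

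Other genes of the same pathways were read from 7 lists, whose counts stand against shares over all probe sets, up and down, of 25.1% and 25.9% before birth in A/J, 21.8% and 23.7% before birth in B6, 11.8% and 7.74% across birth in A/J and 12.2% and 14.1% across birth in B6. Of 9 further glutathione genes, 4 rose and 3 fell before birth in A/J and 3 rose across it, and in B6 3 rose and 2 fell before birth and 4 rose and 1 fell across it. Glrx, which reduces protein-glutathione bonds, rose by 1.48 before birth in A/J and 1.32 in B6, and Gss, the second enzyme of glutathione synthesis, by 0.57 and 0.47. Gclm and Slc7a11 rose across birth in A/J by 0.33 and 0.53. Of 15 glutathione transferases, 11 rose and 2 fell before birth in each strain, and across birth 2 were up in A/J and the B6 counts were 4 up and 1 down. Gstm1 gained 2.33 in A/J and 1.80 in B6, Mgst1 gained 1.79 and 1.67, and Gsta3 rose before birth (1.31 and 0.88) and across it (0.85 and 0.93).

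Of 14 thioredoxin genes, 6 fell before birth in either strain, and the number that rose was 4 in A/J and 2 in B6. Across birth 2 were up in A/J and the B6 counts were 5 up and 2 down. Txnrd1 changed by -1.96 before birth in A/J and by -1.5 in B6 and then rose across birth by 0.67 and 0.63. Prdx1, a peroxiredoxin of the cytosol, changed by -0.70 and -0.51 before birth and rose by 0.30 across birth in A/J. Txnip rose by 2.58 and 1.71 before birth and by 0.87 across birth in B6.

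The Nrf2 list held 9 genes, Nfe2l2 (Nrf2), Nfe2l1, Keap1, Cul3, Sqstm1, Bach1, Maff, Mafg and Mafk. Of these, 5 rose and 2 fell before birth in each strain. Across birth 2 fell from E20.5 in A/J, and 4 rose and 1 fell from E18.5 in B6. The A/J interval from E19.5 gave 2 up and 1 down. Maff, a small Maf partner, gained 2.04 in A/J and 1.18 in B6 and then fell by -0.77 in A/J. Bach1, a repressor of Hmox1, gained 1.24 and 1.03 before birth. Across birth Bach1 fell by -0.44 from E20.5 in A/J and rose by 0.29 from E18.5 in B6, intervals of different length.

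Of 11 genes of heme, iron and metal handling, before birth 7 were up and 3 down in A/J and 6 up and 2 down in B6, and across birth 2 went up and 1 down in A/J and 4 went up in B6. Cp, the copper oxidase ceruloplasmin, gained 4.48 in A/J and 4.13 in B6, and Mt2, a metallothionein, gained 3.35 and 1.02. Across birth in A/J, Slc40a1, the iron exporter, rose by 0.53 and Selenop, a plasma selenium carrier, fell by -0.45, and in B6 Selenop rose by 0.29 from E18.5 (adjusted p = 0.0392). Of 8 genes that supply NADPH or clear aldehydes, 3 rose and 3 fell before birth in each strain, and across birth the counts were 4 up and 1 down in A/J and 2 up and 3 down in B6. Aldh1a1 rose before birth (1.20 and 0.88) and across it (0.90 and 0.77), and Pgd, of the pentose phosphate pathway, rose across birth (0.34 and 0.31). Nnt, a mitochondrial NADPH source in which C57BL/6J carries a known deletion, was lower in B6 by -0.97 at E15.5, -1.28 on E18.5 and -1.46 in newborns.

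Of 11 genes whose products make superoxide or hydrogen peroxide, 1 fell before birth in either strain, and the number that rose was 7 in A/J and 6 in B6. Across birth the counts were 1 up and 2 down in A/J and 2 up and 1 down in B6. Xdh, xanthine dehydrogenase, gained 3.65 and 3.23, and Cybb, the phagocyte oxidase subunit, gained 2.83 and 1.72. Nox4 gained 2.08 and 1.11 before birth and fell by -0.78 across birth in A/J. Ncf4, a phagocyte oxidase subunit, rose across birth by 0.69 in A/J and 0.58 in B6.

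Across the 12 group means the members did not move as a block. Pearson's r between pairs ran from -0.38 (Cat and Nqo1) to 0.949 (Sod3 and Gpx1) over 36 pairs. Among Sod1, Sod2, Sod3, Gpx1 and Gpx3 it ran from 0.654 to 0.949, and Nqo1 and Hmox1 had 0.73. The groups share their arrays and an age trend, so r is a description. Of 4522 genes with a span of at least 1 log2 unit, those most like Gpx3 were Inmt (r = 0.995), Nbl1 (0.99) and Lmbrd1 (0.989), and those most like Cat were Slc7a7 (0.984), Nr1h3 (0.983) and Snrk (0.983). Gclc was nearest to Klf11 (0.951), Dusp8 (0.945) and Osgin1 (0.94), and Sod3 to Csf3r (0.991), Ptpre (0.984) and Lipg (0.982). Sod1 was nearest to Adhfe1 (0.976), Sod2 to Diaph1 (0.981) and Gpx1 to Tspan18 (0.975). Hmox1 and Nqo1 had no match as close, the nearest being Tmem267 (0.869) and Sorbs2 (0.904).

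Markers of several cell types moved in the same intervals. Before birth in A/J, 9 of 9 type II, 9 of 9 macrophage and 7 of 7 endothelial markers rose, beside the rise of the 7 enzymes. In the same interval 6 of 6 proliferation markers fell, where 25.1% of all probe sets rose and 25.9% fell. Across birth, 6 of 8 neutrophil markers rose in each strain. The shares of all probe sets across birth were 11.8% up and 7.74% down in A/J and 12.2% up and 14.1% down in B6. The neutrophil mean went from between 6.73 and 6.98 at E20.5 to between 7.52 and 7.64 at PN0 in A/J, and from between 5.80 and 5.98 at E18.5 to between 7.43 and 7.62 in B6, in the interval in which Sod3 rose. The mean of 5 smooth muscle markers, of which 4 rose in A/J (in B6, 3 up and 1 down), went from 9.0 or less at E20.5 to 9.72 or more at PN0 in A/J and from between 8.69 and 8.91 at E18.5 to between 9.26 and 9.51 in B6. Their part in the changes of the enzymes was not tested. The macrophage mean in A/J lay between 8.05 and 8.21 at E20.5 and between 7.96 and 8.12 at PN0, the interval in which Hmox1 and Sod3 rose, with 1 of 9 markers up and 2 down. In B6 it went from between 7.24 and 7.41 at E18.5 to between 7.75 and 7.79 at PN0, with 3 of 9 markers up, as Hmox1 and Sod3 rose by 0.93 and 0.56.

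**Figure D5:**
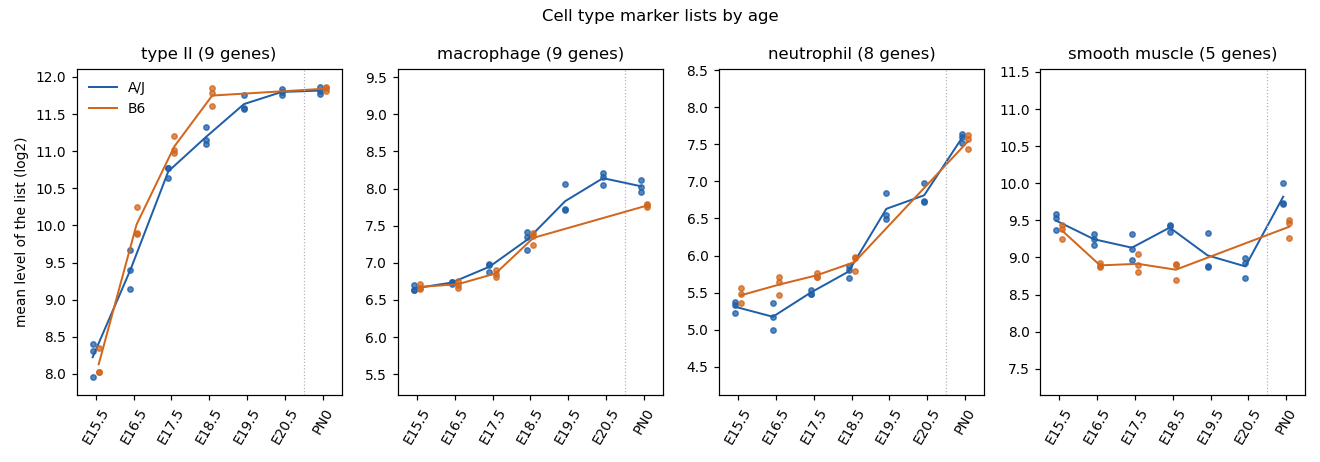
Mean log2 level of type II, macrophage, neutrophil and smooth muscle marker lists by age label in A/J (blue) and B6 (orange); points are replicates and lines join group means. Neutrophil and smooth muscle means stepped up at PN0 in both strains, and the type II mean was level from E20.5 to PN0 in A/J.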

How the data were processed

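The values are log2 expression levels from Affymetrix Mouse Gene ST arrays, which the authors deposited after RMA in Affymetrix Expression Console 1.1. They were neither normalised again nor filtered. Of 35556 probe sets, 21789 had 1 gene symbol in the platform annotation, and a gene with several was read by the one with the highest mean. Titles assigned the 37 arrays to groups. Array 2b of B6 at E18.5 was averaged with array 2, although its origin is not established. Group means of the 36 replicates in 12 groups were fitted with limma 3.58.1 (R 4.3.3), with 24 residual degrees of freedom and a prior of 2.83, after a test on simulated data. Benjamini-Hochberg adjustment ran over the 21789 probe sets. SE is limma's moderated standard error. Python 3.11.15 with matplotlib 3.10.9 drew the figures.

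The members and gene lists were chosen with earlier results of these data known. Named were all members and, from each other list, the 2 genes with the largest change in A/J before birth and the 2 across it, with up to 3 genes most like each member by Pearson's r. Same-numbered replicates correlated in their deviations from the group means between the strains at E15.5 (0.26, 0.21 and 0.37). The main fit used no pairing, and the replicate number entered as a block only in alternative fits. The alternatives covered scaling, probe sets, filters, the model, array 2b, the omission of replicates and the call rule. The functional Bayesian model of the methods was not run.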

Additional observations from a re-analysis of the deposited data

Results flagged for a closer look

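The change of Gclc from the day before delivery to PN0 differed between the strains by 1.20 on the log2 scale (B6 minus A/J, adjusted p = 1.3e-04 from limma's interaction test), with every newborn B6 replicate above every newborn A/J replicate. The change of Hmox1 from E15.5 to E18.5 differed by 1.04 (B6 minus A/J, adjusted p = 0.00438 from the same kind of test), with a fall in A/J and no called change in B6. Groups of 3 replicates were too small for the search for single outlying samples.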

How the results depend on the processing

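No called change of the 9 genes turned its direction under the settings run, whereas some that were not called did, such as that of Gpx3 from E19.5 to PN0 in A/J (0.04, from -0.11 to 0.14) and the strain difference in change of Sod3 across birth (-0.12, from -0.26 to 0.06). Of 3708 values of single genes under other settings, 3533 kept their side of the threshold, 140 lost the call and 35 gained it. The depth of array data is its signal over background, and Sod3 and Nqo1 were dim. With 3 replicates a group, fits of the compared groups alone had few degrees of freedom.

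The number of genes called of 9 moved as follows. With the compared groups alone, it went from 8 to 5 across birth in B6, from 6 to 3 for A/J from E19.5 to PN0, from 1 to 0 for the birth step against the day before, the strain difference across birth, and strain at E16.5 and at E18.5, from 3 to 1 for strain at E17.5, from 2 to 0 on the day before delivery and in the A/J steps to E16.5 and to E19.5, from 5 to 1 in the A/J step to E18.5, and from 1 to 2 in the B6 step to E16.5. Without the 8 replicates with neighbouring tissue, it went from 4 to 1 across birth in A/J, from 1 to 0 for the birth step against the day before and for the B6 step to E16.5, from 3 to 1 for strain at E17.5, from 2 to 1 on the day before delivery and in the A/J steps to E16.5 and to E19.5, and from 2 to 0 in the B6 step to E17.5. With a fold of 1.5 required as well, it went to 0 across birth in A/J, 2 before birth in B6, 3 across birth in B6, 3 for A/J from E19.5 to PN0, 1 for strain at E17.5, at PN0 and on the day before delivery, 1, 2, 1 and 0 in the A/J steps to E16.5, E17.5, E18.5 and E19.5, and 0 and 1 in the B6 steps to E16.5 and E17.5. With centred arrays, it went from 5 to 2 in the A/J step to E18.5, from 2 to 0 in the B6 step to E17.5 and from 3 to 5 in the B6 step to E18.5. With dim probe sets left out or the replicate block, the strain difference across birth gave 2 (Gpx3 added). With array 2b left out or as a 4th replicate, the B6 step to E17.5 gave 1. The cause of these moves was not tested.

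The replicate block gave 1 for strain at E17.5, and with the E15.5 groups alone 0 at E15.5. Apart from the strain difference across birth, given above, the block changed no other count by over 1.5 times. In the other comparisons the correlations of same-numbered replicates were mixed in size and sign. They were 0.24, 0.07 and 0.00 from E15.5 to E16.5 in B6 and -0.14, -0.27 and -0.11 between the strains at E17.5. Each B6 replicate at E18.5 correlated best with its own number at E17.5 (0.07, 0.33 and 0.17).

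Leaving out each replicate in turn, the count ranged from 8 to 9 before birth in A/J, 2 to 5 across birth in A/J, 5 to 7 before birth in B6, 6 to 8 across birth in B6, 6 to 7 for A/J from E19.5 to PN0, 1 to 1 for the birth step against the day before, 1 to 2 for each strain difference in change, 1 to 1 for strain at E15.5 and E16.5, 1 to 3 at E17.5, 1 to 2 at E18.5, 2 to 4 at PN0 and 0 to 2 on the day before delivery. In the A/J steps it ranged from 1 to 2, 3 to 4, 4 to 5, 1 to 3 and 0 to 1, and in the B6 steps from 0 to 1, 1 to 2 and 3 to 3, in order of age.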
